A study of Mus musculus with 4 samples.

Results

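Lactotrophs, the prolactin-secreting cells of the anterior pituitary, were described in 3764 cell barcodes out of 21669 that passed the filters and 44108 in the deposited single-cell RNA matrices. A barcode was taken as a lactotroph when at least 1000 genes were detected in it, at most 10% of its UMIs (unique molecular identifiers, 1 per captured RNA molecule) were mitochondrial, and Prl made up at least 20% and Gh less than 10% of its UMIs. Prl encodes prolactin and Gh encodes growth hormone, so the cells were chosen by a measured value and their Prl and Gh levels are description only. The study measured whole pituitaries of p25OE mice, which overexpress p25, and of their wild-type littermates (WT) at 14 and 40 weeks of age, with 1 library for each genotype and age and all mice given as the strain C57BL/6- B6;CBA-BiTg mice. p25 is the truncated, stable form of the protein made by Cdk5r1, an activator of the kinase Cdk5, and the series title concerns Cdk5, the replication helicase subunit Mcm2 and pituitary tumours. The promoter that drives the transgene, the sex of the mice and the number of glands in a library are not given in the sources used here.

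Lactotrophs release prolactin, which drives milk production, and they secrete unless dopamine from the hypothalamus holds them back through the Drd2 receptor. They arise from progenitors shared with somatotrophs and thyrotrophs under the transcription factor Pou1f1, and oestrogen raises prolactin output and lactotroph number. Because so much of their RNA codes for a single secreted protein, they carry a large endoplasmic reticulum (ER), whose load is sensed by the unfolded protein response and met by chaperones such as Hspa5.

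The libraries held 1684 and 807 lactotrophs at 14 weeks (WT and p25OE) and 1223 and 50 at 40 weeks. As a share of the barcodes that passed the filters, lactotrophs were 34.2% in WT at 14 weeks (exact 95% binomial interval 32.9 to 35.5%) and 16.7% in p25OE at 14 weeks (15.6 to 17.7%). At 40 weeks they were 23.1% in WT (21.9 to 24.2%) and 0.758% in p25OE (0.563 to 0.998%). The share was lower in the p25OE library at both ages. The shares depended on the cells admitted, with all barcodes that passed the filters kept in the denominator. Without cells with 3 UMIs of other cells' markers they were 5.64%, 4.85%, 2.41% and 0.212% (WT then p25OE at 14 weeks, then at 40 weeks). Col1a2, counted among these markers, is held by lactotrophs. It was 11.9-fold, 15.8-fold and 6.85-fold above somatotrophs in WT and p25OE at 14 weeks and WT at 40 weeks. Leaving out cells with Col1a2 therefore also leaves out lactotrophs, and these shares are not read as a narrower gap between genotypes. When Col1a2 and S100a1 were not counted as such markers, the shares were 31.1%, 13.9%, 5.62% and 0.470%. The 50 cells at 40 weeks were just enough to be described. A share depends on which other cells were captured, and these intervals, like all intervals below, cover counting error only. With 1 library per group no difference between genotypes or ages could be tested. The labels give the same kit version for all libraries, but the barcode sets of the 14-week and 40-week libraries differ. Age could therefore not be told apart from the kit or run. The median lactotroph held 20758, 19416, 9155 and 11422 UMIs (the order of all series of 4 values is WT then p25OE at 14 weeks, then the same at 40 weeks). The libraries shared between 1 and 135 barcodes pairwise, and no lactotroph barcode was shared. The RNA that females use to silence an X chromosome, Xist, was at 1335, 1320.4, 1621 and 1679 scaled CPM in these cells (CPM taken over UMIs other than Prl and divided by size factors common to the 4 libraries), and 4 Y-linked genes together gave 3, 1, 0 and 0 UMIs, so lactotrophs of all 4 libraries looked alike in this respect.

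**Figure D1:**
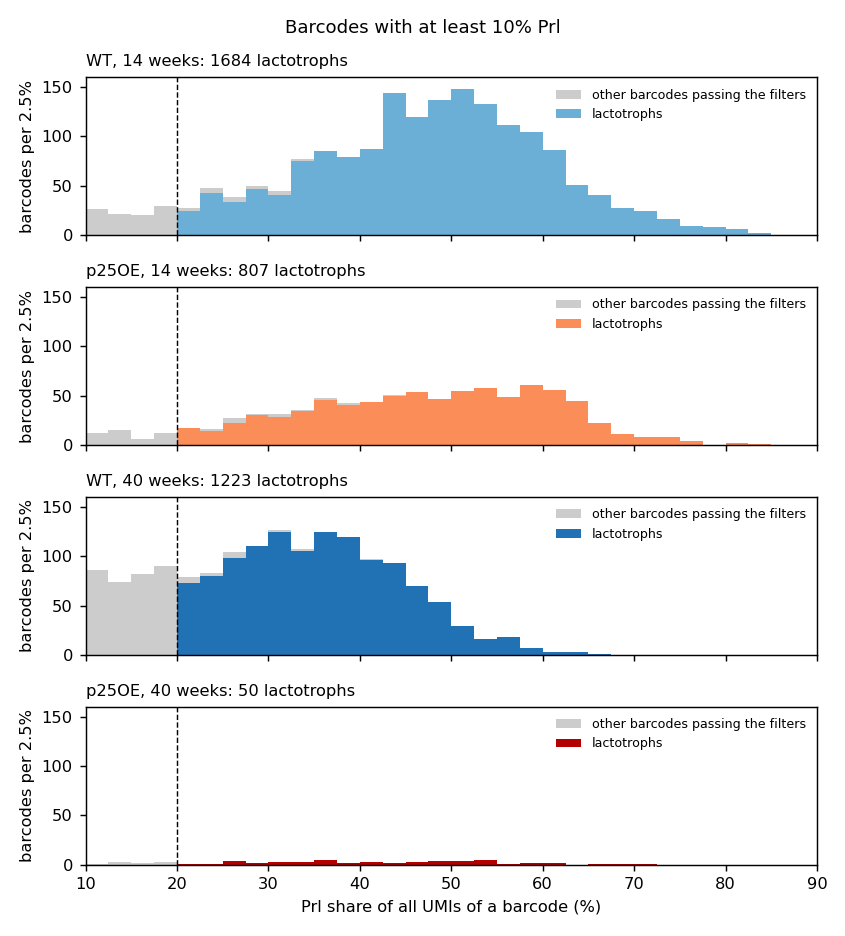
Barcodes that passed the filters and held at least 10% Prl, by their Prl share of all UMIs (x axis, %), with the number of barcodes per 2.5% on the y axis and 1 panel per library. Coloured bars are lactotrophs, grey bars are the other barcodes, and the dashed line marks the 20% threshold; the WT library at 40 weeks has the most barcodes just below it.

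Prl took 48.7%, 49.0%, 35.5% and 44.1% of the UMIs of the median lactotroph. The highest single cells reached 83.3%, 82.9%, 65.0% and 70.9%. In WT at 14 weeks 67 cells lay just inside the threshold (Prl at 20 to 25%) and 34 just outside it (15 to 20%). In p25OE at 14 weeks these numbers were 31 and 11, in WT at 40 weeks 153 and 148, and in p25OE at 40 weeks 2 and 5. In WT at 40 weeks the lactotroph marker Crhbp was at 639.8 plain CPM (over UMIs other than Prl, with no size factor) just inside and 354 just outside. The threshold thus passed through a well-filled range of Prl shares in that library.

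The label was checked against 3 markers that the rule did not use. Crhbp, a secreted protein that binds corticotropin-releasing hormone, was at 2943, 1571, 1244 and 220.4 scaled CPM. Angpt1, a ligand of the endothelial receptor Tek, was at 58.4, 81.0, 50.8 and 8.16 scaled CPM, and Drd2, the dopamine receptor, at 48.1, 54.6, 41.4 and 119.7 scaled CPM. In all cells with under 15% Prl, Crhbp was at 23.7, 8.82, 79.0 and 0.348 plain CPM, Angpt1 at 6.68, 4.88, 10.6 and 1.13, and Drd2 at 98.2, 83.9, 51.3 and 108. Crhbp and Angpt1 thus set lactotrophs apart from such cells in the 3 larger libraries. In p25OE at 40 weeks Crhbp did so at a low level while Angpt1 rested on 3 UMIs. Drd2, which melanotrophs also carry, did not set lactotrophs apart in these libraries.

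The Prl promoter is shown because Prl chose the cells and Pou1f1, the factor that specifies them, is known to bind in it. In the 250 bases upstream of the RefSeq transcription start (build GRCm38.p6, chr13:27057320-27057569, plus strand), the letters TATNCAT, part of the site that Pou1f1 favours, were searched on both strands. They were found 148 and 47 bases before the start, in capitals below, and they occur in 9.16% of the 27025 promoters of all genes.
Prl: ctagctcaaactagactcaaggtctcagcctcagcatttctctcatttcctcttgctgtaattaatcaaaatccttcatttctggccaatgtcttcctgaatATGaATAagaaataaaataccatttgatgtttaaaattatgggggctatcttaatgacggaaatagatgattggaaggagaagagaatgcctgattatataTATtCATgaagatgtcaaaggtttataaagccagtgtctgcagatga
The same letters were found in the Crhbp promoter and in none of the other lactotroph-enriched genes with a promoter in the table, which makes 2 of 9 genes (22.2%).

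Among the 12 genes most enriched over somatotrophs of the same libraries (Gh at least 20% and Prl under 10% of UMIs), Crhbp led with at least 21.3-fold in each of the 3 larger libraries. It was followed by Creb3l1, an ER-bound transcription factor (18.1-fold), Hmcn1, an extracellular matrix protein (16.6-fold), Pcdh11x, a protocadherin (16.3-fold), and Rxfp1, the relaxin receptor (15.8-fold). The other 7, in order, were Lsamp, Edil3, Hepacam2, Cited1, Reln, Rnaset2a and Asb4, with lowest ratios from 10.8-fold to 8.03-fold.

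RNA of other pituitary cells was present in the lactotroph barcodes and differed between libraries. Gh was 0.178%, 0.169%, 2.57% and 0.0447% of the UMIs of the median lactotroph. Summed melanotroph markers reached 1.51%, 3.16%, 8.77% and 10.9% of their level in Pomc-rich cells of the same library, and macrophage markers 0.762%, 0.937%, 3.49% and 1.64% of theirs in macrophages. Barcodes with fewer than 500 detected genes hold mostly free RNA, and Gh in lactotrophs stood at 3.34%, 6.27%, 33.4% and 26.5% of its level in them. Of the gonadotroph markers 3 of 4 were at 0 in p25OE at 40 weeks. Values for a gene in such free RNA, or in the cell class that holds most of it, are therefore given beside the results they touch, and their part in a result was not tested.

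At 14 weeks, lactotrophs of the p25OE library held less RNA for ER chaperones and for the degradation of misfolded protein than WT lactotrophs, less Crhbp, Creb3l1 and Thrb, and more RNA of immediate early genes. A gene was counted as higher or lower in a comparison when its ratio was at least 1.5-fold and the 95% counting interval left out 1, among genes with a mean of at least 10 scaled CPM. This threshold describes these libraries and is no test of the genotype. Of 8507 genes measured, 385 were higher in p25OE (4.53%) and 232 lower (2.73%), and the median log2 ratio of all genes was 0.01.

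Of the 12 lactotroph-enriched genes named above, 5 were lower and 0 higher in p25OE at 14 weeks: Crhbp and Creb3l1, described below, Rnaset2a (1.88-fold lower), Lsamp (1.59-fold lower) and Rxfp1 (173 and 113 scaled CPM, 1.53-fold lower). Rxfp1 passed the threshold in 12 of 17 alternative settings, and Reln, at 354 and 241 scaled CPM, did not pass it. The other 6 stood between ratios of 0.828 (Cited1) and 1.23 (Hmcn1).

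None of the 26 measured genes of the ER and unfolded protein response list was higher in p25OE at 14 weeks, and 9 were lower; the list's median log2 ratio was -0.44. In somatotrophs of the same libraries the list's median was -0.01. Of the 26 genes, 22 had a lower ratio in lactotrophs than in somatotrophs, against 46.6% of all genes measured. Hspa5, the main ER chaperone (BiP), was at 3551 scaled CPM in WT and 2115 in p25OE, 1.68-fold lower (95% interval 1.65 to 1.71); in somatotrophs it was 1.23-fold higher. Herpud1, which helps move misfolded protein to degradation, went from 691 to 315 scaled CPM, 2.20-fold lower (95% interval 2.11 to 2.29). Dnajb9, a co-chaperone of Hspa5, was at 494 and 229 scaled CPM, 2.15-fold lower (95% interval 2.05 to 2.26). Hspa5 and Herpud1 pointed in opposite directions in the 2 cell types, since Herpud1 was 1.28-fold higher in somatotrophs.

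Creld2, an ER protein induced by unfolded protein, was at 232 and 112 scaled CPM, 2.08-fold lower (95% interval 1.94 to 2.23). The other 5 lower genes, named after their values were seen, were the transcription factor Ddit3 (CHOP, 1.99-fold lower), the protein disulfide isomerase Pdia4 (1.63-fold lower), Sdf2l1 (1.62-fold lower), the secreted factor Manf (1.54-fold lower) and Sel1l, the partner of the ubiquitin ligase Syvn1 (1.57-fold lower). The sensors and transcription factors at the head of the response did not pass the threshold: Atf6 was at 55.3 and 42.6 scaled CPM, Ern1 at 86.3 and 82.4, and Xbp1 at 323 and 233. Canx, a lectin chaperone of newly made glycoproteins, was at 343 and 343 scaled CPM, and Pdia3, another disulfide isomerase, at 1007 and 1100.4. Chac1, a glutathione-degrading enzyme known to be induced downstream of Atf4, lay outside the list and was at 25.6 and 5.73 scaled CPM, 4.47-fold lower (95% interval 3.32 to 6.13).

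**Figure D2:**
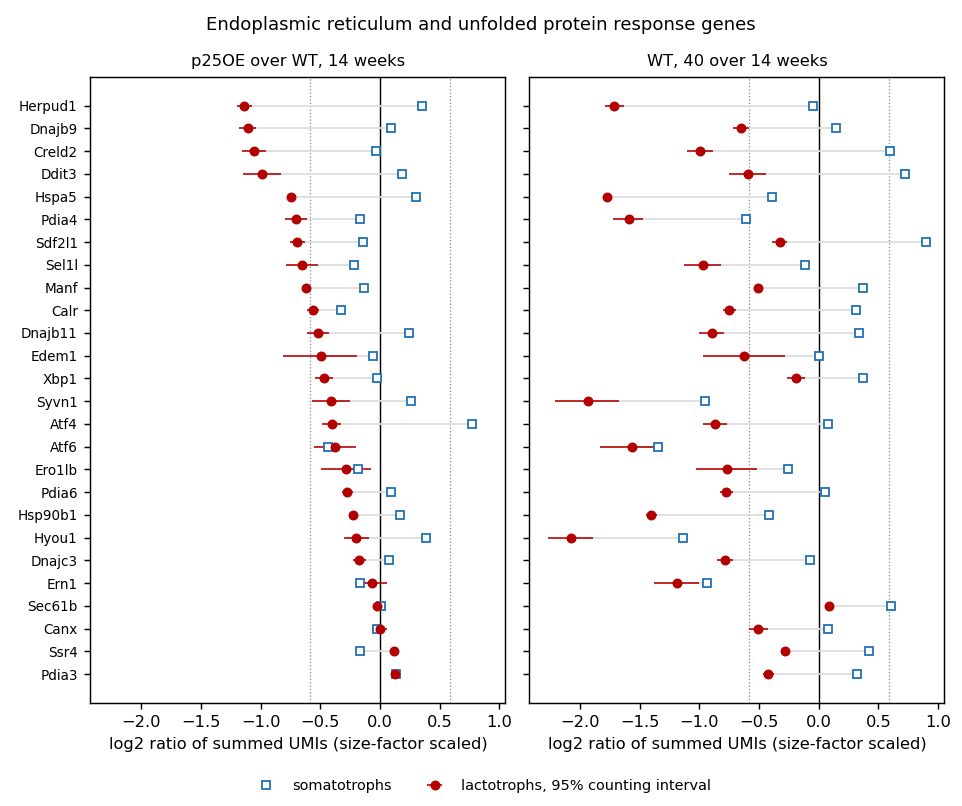
The 26 measured ER and unfolded protein response genes: log2 ratio of p25OE over WT at 14 weeks (left) and of WT at 40 over 14 weeks (right), red circles for lactotrophs with 95% counting intervals and open squares for somatotrophs. The 9 genes left of the dotted 1.5-fold line at 14 weeks include Herpud1, Dnajb9, Creld2 and Hspa5, and in the right panel all 26 lactotroph values lie left of the somatotroph values.

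Some promoters of this list hold known ER stress motifs, shown here for 4 genes of the response. The 250 bases upstream of the RefSeq transcription start (build GRCm38.p6) were searched on both strands for the ER stress response element, ERSE (CCAAT, then 9 bases of any kind, then CCACG), and for ERSE-II (ATTGG, 1 base of any kind, then CCACG). ERSE was found in 8 of the 23 list genes with a promoter in the table (34.8%) against 35 of 27025 promoters of all genes (0.130%). These 8 are Hspa5, Hsp90b1, Calr, Canx, Pdia6, Dnajc3, Creld2 and Syvn1, of which Hspa5 and Creld2 were lower in p25OE at 14 weeks. ERSE-II was found in Herpud1 alone (4.35% of the list genes, 0.0370% of all promoters). Matched letters other than N are in capitals below, read 5′ to 3′ on the gene's strand, where a motif on the other strand appears as its reverse complement, and a match describes the letters and says nothing of binding. The regions are chr2:34771840-34772089 (plus strand, Hspa5, ERSE first base 65 bases before the start), chr10:86705445-86705694 (minus strand, Hsp90b1, 212 and 107 bases before), chr15:88819396-88819645 (plus strand, Creld2, 126 bases before) and chr8:94386179-94386428 (plus strand, Herpud1, ERSE-II 52 bases before).
Hspa5: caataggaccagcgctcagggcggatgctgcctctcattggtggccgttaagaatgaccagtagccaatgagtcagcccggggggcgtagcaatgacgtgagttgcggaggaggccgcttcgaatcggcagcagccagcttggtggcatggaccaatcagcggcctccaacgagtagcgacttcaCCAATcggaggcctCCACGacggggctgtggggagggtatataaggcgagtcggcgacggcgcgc
Hsp90b1: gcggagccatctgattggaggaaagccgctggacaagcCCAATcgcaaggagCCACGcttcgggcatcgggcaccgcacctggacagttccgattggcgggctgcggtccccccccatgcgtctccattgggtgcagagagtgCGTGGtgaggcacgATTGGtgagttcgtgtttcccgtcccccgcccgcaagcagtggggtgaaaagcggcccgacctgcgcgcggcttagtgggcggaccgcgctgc
Creld2: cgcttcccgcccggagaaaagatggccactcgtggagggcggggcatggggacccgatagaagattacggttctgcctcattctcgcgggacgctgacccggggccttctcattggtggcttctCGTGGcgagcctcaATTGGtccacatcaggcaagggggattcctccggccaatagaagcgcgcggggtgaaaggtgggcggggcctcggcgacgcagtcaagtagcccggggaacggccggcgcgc
Herpud1: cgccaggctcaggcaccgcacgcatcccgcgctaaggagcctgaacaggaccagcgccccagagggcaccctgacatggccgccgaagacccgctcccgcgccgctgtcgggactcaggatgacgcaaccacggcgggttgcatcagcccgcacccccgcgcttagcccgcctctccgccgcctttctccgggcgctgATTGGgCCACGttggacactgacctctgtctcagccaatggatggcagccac
The Hspa5 and Herpud1 promoters hold 1 match each, and their RNAs were lower in p25OE. Hsp90b1 (GRP94, the ER paralogue of Hsp90, named for its promoter) holds 2 matches and was at 1696 and 1453 scaled CPM, below the threshold, so a motif match and a lower level did not go together in every gene.

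Creb3l1, an ER-membrane transcription factor of secretory cells (chromosome 2, 91982328 to 92024502), was at 467, 237, 199.7 and 207 scaled CPM. In p25OE at 14 weeks it was 1.97-fold lower (95% interval 1.88 to 2.07), and in somatotrophs, whose WT level was 7.88 scaled CPM, its ratio was 2.67-fold lower. Thrb, the thyroid hormone receptor beta, was at 491, 270.5, 128 and 49.0 scaled CPM and was 1.81-fold lower (95% interval 1.73 to 1.90) in p25OE at 14 weeks. It was the only member of the receptor list past the threshold: 0 of 8 measured receptors were higher and 1 lower. Drd2 was at 48.1 and 54.6 scaled CPM at 14 weeks, the oestrogen receptor Esr1 at 94.6 and 88.6, and the prolactin receptor Prlr at 53.3 and 46.2. The progesterone receptor Pgr, the oxytocin receptor Oxtr and the GABA-B receptor subunit Gabbr1 were also measured and did not pass it.

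Of 11 measured lineage factors, 2 were higher and 0 lower in p25OE at 14 weeks, and their median log2 ratio was 0.12. Pou1f1, the factor that specifies lactotrophs, somatotrophs and thyrotrophs, was at 607 and 468 scaled CPM and did not pass the threshold. The LIM-homeodomain factor Lhx3 was at 47.6 and 81.3 scaled CPM, 1.71-fold higher (95% interval 1.54 to 1.89). The ETS factor Etv1 was at 23.6 and 39.2 scaled CPM, 1.66-fold higher (95% interval 1.44 to 1.93). These 2 were the higher genes of the list. Lhx3 was 1.81-fold lower in somatotrophs, opposite to its direction in lactotrophs.

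Among genes for local signals, 0 of 6 were higher and 2 lower. Crhbp (chromosome 13, 95431371 to 95444924), at 2943 and 1571 scaled CPM, was 1.87-fold lower (95% interval 1.84 to 1.91), and in somatotrophs it was 2.5-fold lower. Dlk1, a Notch-ligand-like protein that also marks somatotrophs, was at 1193 and 736 scaled CPM, 1.62-fold lower (95% interval 1.57 to 1.67). Both were the only members of this list past the threshold. Galanin (Gal), an oestrogen-responsive peptide of lactotrophs, was at 708 and 613 scaled CPM, and the calcium buffer Calb1 at 293 and 339.9, with neither past the threshold.

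Of 28 genes for secretory granules and hormone processing, 4 were higher and 3 lower at 14 weeks, and the median log2 ratio was -0.03. The 3 lower genes encode granule proteins of the endocrine and neuroendocrine pathway: Resp18 was at 929 and 247 scaled CPM, 3.75-fold lower (95% interval 3.59 to 3.93). Ptprn, a phosphatase-like protein of the granule membrane, was at 394 and 165 scaled CPM, 2.38-fold lower (95% interval 2.25 to 2.53), and its paralogue Ptprn2 was 1.90-fold lower. Resp18 in WT lactotrophs was at 18.8% of its level in its highest reference class, and it was also 1.68-fold lower in somatotrophs. Among the higher genes were Cplx2, a complexin that clamps vesicle fusion, at 59.1 and 131 scaled CPM (2.21-fold higher), and Rasd1, a Ras-like GTPase (1.71-fold higher). Cadps, a priming factor of granules named after its value was seen, was 1.56-fold higher. The prohormone convertase Pcsk2 was at 13.9 and 52.5 scaled CPM (3.77-fold higher), but it was only at 4.5% of its highest class, and in barcodes with few genes it was at 102 and 156 plain CPM. The main granin of these cells, Chgb, was at 9570.1 and 11584 scaled CPM and did not pass the threshold.

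Cdk5r1, the gene whose product gives p25, did not pass the threshold in any comparison where it was measured, nor did Cdk5 or Mcm2. Cdk5r1 (chromosome 11, 80477023 to 80481184) was at 22.1, 25, 21.5 and 5.44 scaled CPM, with 2 UMIs in p25OE at 40 weeks. A transgene with another 3′ end would not be counted under Cdk5r1, so this value does not check the genotype labels. Cdk5 was at 46.5, 51.9, 58.3 and 49.0 scaled CPM, its neuronal activator Cdk5r2 at 16.3, 22.3, 17.2 and 27.2, and Mcm2 at 10.6, 10.5, 8.25 and 19. Cdk5r2 did not pass it either. Of 16 genes for Cdk5 and its partners, 3 were higher at 14 weeks and 0 lower, among them the tubulin-binding Stmn1, a substrate of proline-directed kinases, at 301 and 670.3 scaled CPM (2.23-fold higher, 95% interval 2.15 to 2.31), and tau, Mapt, at 42.1 and 67.8 (1.61-fold higher, 95% interval 1.44 to 1.80). The remaining one, Mef2c, was at 4.68% of its highest class. Of 11 genes of the MCM helicase and S phase list, 0 were higher and 1 lower, the uracil-DNA glycosylase Ung (34.5 and 18.6 scaled CPM, 1.86-fold lower).

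Cells in division were rare, and their share was higher in the p25OE library at both ages. A UMI of at least 2 of the 4 genes Mki67, Top2a, Birc5 and Cdk1 was found in 3 of 1684 WT lactotrophs at 14 weeks (0.178%) and in 23 of 807 p25OE lactotrophs (2.85%, 95% binomial interval 1.82 to 4.25%). At 40 weeks it was found in 0 of 1223 WT cells, which allows a share of up to 0.301%, and in 4 of the 50 p25OE cells (8%, 2.22 to 19.2%). After each cell was thinned to 1000 UMIs other than Prl, 2, 6, 0 and 0 cells remained. The thinned shares at 14 weeks, 0.119% (0.0144 to 0.428%) in WT and 0.743% (0.273 to 1.61%) in p25OE, have intervals that overlap. The median Prl share of the dividing cells at 14 weeks was 42.0% in WT and 38.1% in p25OE. Of 28 G2 and mitosis genes, 20 did not reach the minimum level at 14 weeks, and the genes higher in p25OE reached it only through their p25OE level, so neither their number nor the list's median is read as a result. They include the kinetochore protein Cenpf (3.3 and 41.2 scaled CPM, 12.5-fold higher), topoisomerase Top2a (3.24 and 27.7, 8.55-fold higher) and the proliferation marker Mki67 (3.53 and 25, 7.10-fold higher). In somatotrophs these genes were 2.72-fold higher, 4.38-fold higher and 2.47-fold higher. The list's median log2 ratio, 2.96 over 8 measured genes, was -0.39 once the dividing cells were left out. It was -0.35 among genes with a mean of at least 30 scaled CPM. Both values cover only the genes that still reached the minimum level under that setting, so they are not medians of the same 8 genes. Dividing cells were found by Mki67, Top2a, Birc5 and Cdk1, so a drop without them was fixed in advance. Neither value is read as mitotic genes below WT. Whether such a barcode is a dividing lactotroph or a lactotroph caught with another dividing cell was not tested.

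Immediate early and heat shock genes, which respond within minutes to stimulation or to tissue dissociation, were higher in p25OE for 12 of 24 genes and lower for 0, and their median log2 ratio was 0.56. The same list had a median of 1.10 in somatotrophs. Junb, an AP-1 subunit, was at 976 and 1604 scaled CPM, 1.64-fold higher (95% interval 1.61 to 1.68) in lactotrophs and 2.76-fold higher in somatotrophs. Ier2 was at 299 and 518 scaled CPM, 1.74-fold higher (95% interval 1.67 to 1.81), and 4.25-fold higher in somatotrophs. Lactotrophs thus showed the smaller ratio for both genes. Fos, named after its values were seen, was 1.85-fold higher, and the growth-restraining Btg2 was 1.57-fold higher. Other activity-linked genes were among those with the highest ratios: Arc (17.6 and 77.2 scaled CPM, 4.39-fold higher), the kinases Plk2 (3.3-fold higher) and Sgk1 (3.19-fold higher), and the stress sensor Gadd45b (3.12-fold higher). Mgll, the lipase that breaks down the endocannabinoid 2-arachidonoylglycerol, was at 10.1 and 48.9 scaled CPM, 4.83-fold higher (95% interval 4.04 to 5.79), and at a ratio of 1.02 in somatotrophs.

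Of 28 interferon response genes, 10 reached the minimum level at 14 weeks, and 9 of these were higher in p25OE, against 4.53% of all genes. Their median log2 ratio was 1.06 in lactotrophs and 0.77 in somatotrophs. A gene near the minimum reaches it more readily when its p25OE level is high, so neither number is read as a result. Over the alternative settings, 3 to 23 genes of the list were higher. Ifi27 was held by lactotrophs at 60.7% of its level in its highest class, at 263 and 413 scaled CPM, 1.57-fold higher (95% interval 1.51 to 1.64). Isg15, Ifitm3 and Ifi27l2a were at only 3.23%, 2.34% and 4.57% of theirs, which were T or NK cells, endothelial cells and T or NK cells. Macrophage markers in lactotrophs were at 186 and 237 plain CPM in WT and p25OE at 14 weeks, and the part of such RNA in the list was not tested.

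In the other lists, whose medians the plot of list medians shows, higher and lower genes at 14 weeks numbered 1 and 0 of 9 for oestrogen-responsive genes, 1 and 0 of 14 for prolactin receptor and JAK-STAT signalling, 2 and 0 of 18 for ion channels, and 3 and 0 of 22 for cyclic AMP and G protein signalling. Socs3, the feedback inhibitor of cytokine receptors, was the JAK-STAT gene concerned (51.0 and 132 scaled CPM, 2.58-fold higher, and 3.85-fold higher in somatotrophs). The counts were 5 and 1 of 21 for CDK inhibitors, D cyclins and p53 targets, 4 and 0 of 15 for glucocorticoid-induced genes and metallothioneins, 2 and 0 of 13 for MHC class I, and 1 and 1 of 20 for hypoxia and glycolysis. They were 1 and 0 of 37 for nuclear oxidative phosphorylation genes, 2 and 0 of 13 for mitochondrially encoded genes, 1 and 1 of 14 for pituitary tumour genes, 1 and 0 of 5 for senescence-associated secretion, and 2 and 1 of 8 for nuclear long RNAs. Nuclear genes of the respiratory chain thus stayed within the threshold in all but 1 case. The higher gene among pituitary tumour genes was the tumour suppressor Rb1 (9.67 and 18.5 scaled CPM, 1.91-fold higher), and the lower one was Plagl1, an imprinted zinc finger gene (1.56-fold lower).

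**Figure D3:**
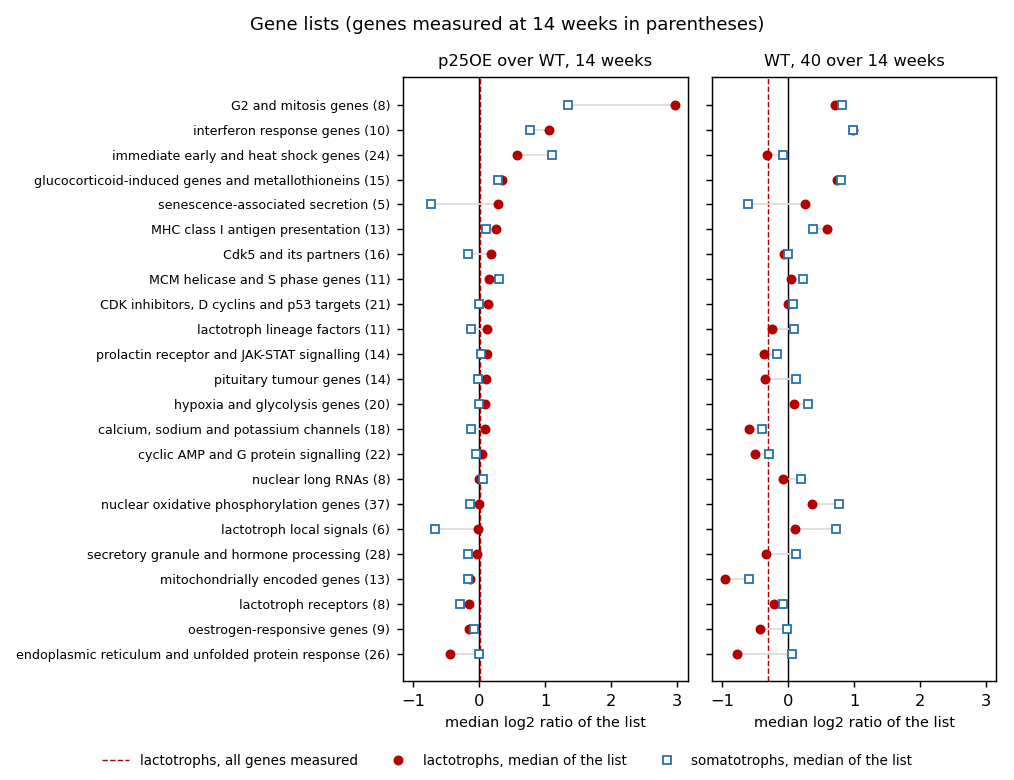
Median log2 ratio of each of the 23 gene lists (rows, with the number of genes measured at 14 weeks in parentheses) for p25OE over WT at 14 weeks (left) and WT at 40 over 14 weeks (right), red circles for lactotrophs, open squares for somatotrophs and a dashed line for the median of all genes in lactotrophs. The ER and unfolded protein response list has the lowest lactotroph median at 14 weeks (-0.44). The G2 and mitosis median (2.96) covers 8 of 28 genes, of which 6 were measured only through their p25OE level.

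The genes with the lowest ratios in p25OE at 14 weeks, beyond Chac1 and Resp18, were Ntrk3, the neurotrophin-3 receptor (27.7 and 4.09 scaled CPM, 6.77-fold lower), Anxa2, Ddah1, Capn8, Sparc, Ggt5, P2ry14, Bdh2, Efna1 and Cidea. Capn8, a calpain, was at 22.9 and 6.90 scaled CPM, 3.32-fold lower (95% interval 2.52 to 4.44), and was lactotroph-held, with no other class above it in WT. Ddah1, which degrades inhibitors of nitric oxide synthase, was 3.38-fold lower and at a ratio of 0.956 in somatotrophs. Bdh2, a cytosolic dehydrogenase, was at 60.3, 21.9, 103 and 112 scaled CPM, so it was low in p25OE at 14 weeks and high in both 40-week libraries. Anxa2, Sparc and Cidea were at 10.6%, 10.4% and 11.2% of their highest class. Of the genes with the highest ratios, Lars2 (55.1 and 188 scaled CPM) was at 261 and 1562 plain CPM in barcodes with few genes, far above its level in lactotrophs, and the long RNA Lockd was 3.04-fold higher. Cenpa and Cks2, the remaining genes of the 12, are mitotic.

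Between 14 and 40 weeks, WT lactotrophs differed in many more genes, and ER genes, Thrb, Crhbp and several calcium channel subunits were lower in the 40-week library, whose age could not be told apart from its kit or run. Of 8201 genes measured, 725 were higher at 40 weeks (8.84%) and 2662 lower (32.5%), and the log2 ratio of the median gene was -0.30. The split depends on the scaling: with size factors from these 2 libraries alone, 1332 genes were higher and 1650 lower. Because of this shift, log2 ratios relative to the median gene are given for the lists described and for some genes; for any other gene the fold is not corrected for it. This comparison shares the WT library at 14 weeks with the one above, so a low or high value there enters both, and the 2 sets of values are given side by side only.

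Of the 26 ER and unfolded protein response genes, 0 were higher and 19 lower at 40 weeks; their median log2 ratio was -0.78, or -0.48 relative to the median gene. The list's median in somatotrophs was 0.06, and all 26 genes had a lower ratio in lactotrophs, against 85.7% of all genes. Somatotroph ratios were scaled with size factors of their own, and their median over all genes measured was 0.04. Hspa5 was at 3551 and 1037 scaled CPM, 3.42-fold lower (95% interval 3.34 to 3.51), and 1.31-fold lower in somatotrophs. Relative to the median gene its log2 ratio was -1.48. Hyou1, which recharges Hspa5 with ATP, was at 148 and 35.1 scaled CPM, 4.22-fold lower (95% interval 3.71 to 4.82). The ubiquitin ligase Syvn1 was at 67.9 and 17.7 scaled CPM, 3.83-fold lower (95% interval 3.19 to 4.62). Hyou1 and Syvn1 had not passed the threshold between genotypes at 14 weeks, where their levels were 129 and 51.1 in p25OE. Herpud1 was 3.28-fold lower, Hsp90b1 2.65-fold lower, Pdia4 3.02-fold lower and Creld2 2.0-fold lower. Dnajb9, 1.57-fold lower, passed the threshold in 12 of 17 alternative settings. The sensors were lower too, Atf6 at 55.3 and 18.7 scaled CPM (2.95-fold lower) and Ern1 at 86.3 and 37.8 (2.28-fold lower), while Xbp1 was at 323 and 283 and did not pass.

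Creb3l1 was 2.34-fold lower at 40 weeks (log2 ratio -0.93 relative to the median gene), Thrb 3.82-fold lower (log2 ratio -1.64) and Crhbp 2.37-fold lower (log2 ratio -0.95). In somatotrophs Crhbp was 4.35-fold higher and Creb3l1 1.59-fold higher, at low levels there. Of 9 measured receptors, 0 were higher and 2 lower, Thrb and the progesterone receptor Pgr (39.6 and 21.5 scaled CPM, 1.85-fold lower, 95% interval 1.55 to 2.21). Of 11 lineage factors, 1 was higher and 1 lower, and Etv1, the higher gene, was at 23.6 and 35.6 scaled CPM (1.51-fold higher, 95% interval 1.29 to 1.77), past the threshold in 11 of 16 alternative settings. Among 5 local signals, Dlk1 was higher (1193 and 2183 scaled CPM, 1.83-fold higher, 95% interval 1.79 to 1.87) and Crhbp lower. Dlk1 was thus high in the library with the most Gh RNA, and as a somatotroph marker it was 1.52-fold higher in somatotrophs as well.

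At 40 weeks 6 of 30 granule and hormone-processing genes were higher and 12 were lower; their median log2 ratio was -0.33, or -0.04 relative to the median gene, and 32.5% of all genes were lower, so the list as a whole stood near all genes. Chgb was at 9570.1 and 4198 scaled CPM, 2.28-fold lower (95% interval 2.25 to 2.31) (log2 ratio -0.89 relative to the median gene), while in somatotrophs it was 1.47-fold higher. The prohormone convertase Pcsk1 was 2.35-fold lower (89.0 and 37.8 scaled CPM) and the calcium sensor of vesicle fusion Syt1 was 2.31-fold lower. Pcsk1n, the inhibitor of Pcsk1, pointed the other way, at 1785 and 3485 scaled CPM, 1.95-fold higher (95% interval 1.92 to 1.99). Of 17 ion channel genes, 1 was higher and 9 lower, and their median log2 ratio was -0.59, or -0.30 relative to the median gene. The lower genes included the calcium channel subunits Cacna1a (61.3 and 15.1 scaled CPM, 4.05-fold lower), Cacna1d (2.88-fold lower) and Cacna1g (2.88-fold lower). In somatotrophs the same subunits were 2.51-fold lower, 2.71-fold lower and 2.21-fold lower, so these 3 subunits had lower levels in both cell types. The higher gene was another calcium channel subunit, Cacnb3, at 13.5 and 20.6 scaled CPM (1.52-fold higher), past the threshold in 10 of 16 alternative settings.

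Nuclear genes of oxidative phosphorylation were higher for 8 of 37 and lower for 0. Their median log2 ratio was 0.37, or 0.66 relative to the median gene, and 0.77 in somatotrophs. A lower ratio than in somatotrophs was found for 37 of 37, against 85.7% of all genes. Neither this count nor the somatotroph median is corrected for the median of all genes, which was -0.30 in lactotrophs and 0.04 in somatotrophs. The count is therefore not read as a difference between the cell types. Cox6a1, a subunit of cytochrome c oxidase, was at 265 and 695 scaled CPM, 2.63-fold higher. Of 13 mitochondrially encoded genes, 1 was higher and 10 lower, and their median was -0.67 relative to the median gene. Glucocorticoid-induced genes and metallothioneins were higher for 8 of 13 and lower for 1, against 8.84% and 32.5% of all genes. Their median log2 ratio was 0.74 in lactotrophs and 0.81 in somatotrophs. Mt2, a metallothionein, was at 65.0 and 157 scaled CPM (2.42-fold higher), but at only 11.5% of its highest class. Of 28 interferon genes 6 were measured and 4 were higher, with a median log2 ratio of 0.99 in lactotrophs and 0.99 in somatotrophs. A gene near the minimum level reaches it more readily when its level in the library of the older mice is high. Neither the count of higher interferon genes nor their median is therefore read as a result. Over the alternative settings, 1 to 17 interferon genes were higher. MHC class I genes were higher for 7 of 13 and lower for 2, with medians of 0.59 in lactotrophs and 0.37 in somatotrophs. After free RNA was subtracted, the MHC class I median was -0.18 with 0 genes higher, and 1 interferon gene was higher.

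Cyclin D1, Ccnd1, was among the genes with the lowest ratios at 40 weeks, at 148 and 23.5 scaled CPM, 6.29-fold lower (95% interval 5.38 to 7.38) (log2 ratio -2.36 relative to the median gene), and 2.38-fold lower in somatotrophs. Cdkn1b, the CDK inhibitor p27, was at 74.4 and 21 scaled CPM, 3.54-fold lower (95% interval 2.99 to 4.21), and 2.44-fold lower in somatotrophs. Both a cyclin and an inhibitor of the same step were therefore lower. The other genes with the lowest ratios were Lars2, Ppp2cb, Cenpv, Eid2, Brd1, Chac1, Ybx3, Atp8b2, Mpp7, Zfp608 and Pcdh10, from 8.52-fold lower to 5.89-fold lower. Eid2 (80.6 and 11.3 scaled CPM) was 6.33-fold lower in somatotrophs and Ybx3 (78.4 and 12.1) 3.85-fold lower. Among the highest ratios, Rnaset2a, a secreted ribonuclease and lactotroph-enriched gene, was at 237, 126, 949.7 and 327 scaled CPM, 4.02-fold higher (95% interval 3.86 to 4.17) at 40 weeks and 1.88-fold lower in p25OE at 14 weeks; its near-identical copy Rnaset2b can share reads with it. Dbp, an output gene of the circadian clock, was at 12.7 and 62.6 scaled CPM (4.93-fold higher) and 4.15-fold higher in somatotrophs. The others were the pseudogene Ftl1-ps1, Ptgds, Sag, Nme2, Ctxn2, Nrtn, Tppp3, Bloc1s1, Dynlrb2 and Cyr61, at 3.95-fold higher to 6.55-fold higher. Ptgds, a prostaglandin D synthase, was at 6.66, 18.6, 37.6 and 182 scaled CPM, while barcodes with few genes held 313, 108, 157 and 284 plain CPM. Some further lactotroph-enriched genes were lower at 40 weeks, where 32.5% of all genes were lower. They include Reln, a secreted glycoprotein (354, 241, 136 and 27.2 scaled CPM, 2.61-fold lower), Edil3 (2.26-fold lower) and Rxfp1 (2.02-fold lower). These folds are not corrected for the shift of the median gene. Hmcn1 was past the threshold in 11 of 17 alternative settings, and Pcdh11x, Lsamp, Hepacam2, Cited1 and Asb4 did not pass it. Reln was 3.02-fold higher in somatotrophs at low levels.

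In the remaining lists, higher and lower genes at 40 weeks numbered 7 and 7 of 24 for immediate early and heat shock genes, 1 and 7 of 20 for cyclic AMP signalling, 0 and 3 of 13 for JAK-STAT signalling, and 1 and 4 of 9 for oestrogen-responsive genes. They were 2 and 4 of 20 for CDK inhibitors and cyclins, 3 and 4 of 16 for Cdk5 partners, 0 and 2 of 9 for MCM and S phase genes, and 1 and 0 of 2 for G2 and mitosis genes. They were 4 and 2 of 19 for hypoxia and glycolysis, 1 and 5 of 13 for pituitary tumour genes, 0 and 0 of 3 for senescence-associated secretion, and 1 and 2 of 7 for nuclear long RNAs. Stmn1 was higher here too, at 301 and 560.0 scaled CPM (1.86-fold higher).

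The 50 lactotrophs of the p25OE library at 40 weeks, set against the 1223 WT cells of that age, held less Crhbp, galanin and Pou1f1 and more Chgb. Genes with a mean of at least 100 scaled CPM were measured, since the 50 cells gave 345927 UMIs other than Prl. Of 1345 genes, 82 were higher (6.1%) and 185 lower (13.8%), and the log2 ratio of the median gene was -0.14. With plain CPM in place of the size factors, 149 were higher and 110 lower. Somatotrophs are not set beside this comparison, since only 43 were found in that library.

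The 4 measured local-signal genes were lower in p25OE at 40 weeks, and 2 of them still were in thinned cells. Crhbp was at 1244 and 220.4 scaled CPM, 5.64-fold lower (95% interval 4.54 to 7.11). Galanin was at 944 and 329 scaled CPM, 2.87-fold lower (95% interval 2.39 to 3.46). Calb1 was 1.76-fold lower and Dlk1 1.57-fold lower, past the threshold in 7 of 9 and 7 of 10 alternative settings. Dlk1 also marks somatotrophs and in the 14-week libraries was at 14.1% or more of its highest class. The part of somatotroph RNA in its value was not tested. Of 7 lineage factors, 0 were higher and 3 lower, among them Pou1f1 at 459 and 248 scaled CPM (1.85-fold lower, 95% interval 1.5 to 2.31) and the orphan receptor Nr4a1 (2.02-fold lower). Reln, Rxfp1 and Angpt1 rested on 10, 4 and 3 UMIs in the 50 cells and were too low to be counted. No receptor gene reached the minimum level for this comparison.

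Of 19 granule and hormone-processing genes, 5 were higher and 5 lower. Chgb was at 4198 and 25213 scaled CPM, 6.01-fold higher (95% interval 5.87 to 6.15), and it was found in 100% of the 50 cells. Chgb in the 50 cells was above every reference class of the library, and barcodes with few genes held 1519.6 plain CPM. Scg2, another granin named after its values were seen, was 2.62-fold higher, at 668 and 1747 scaled CPM. Chga (445 and 2242 scaled CPM, 5.04-fold higher) and Pcsk2 (94.1 and 509, 5.41-fold higher) were higher too, but barcodes with few genes held 3466 and 1016 plain CPM of them, more than the 2382 and 541 in lactotrophs on the same scale. Melanotroph markers, which include Pcsk2, reached 10.9% of their own class in this library, and their part in these values was not tested. Pcsk1n (2.54-fold lower), Resp18 (1.77-fold lower), Rasd1 (2.31-fold lower) and Syt4 (1.80-fold lower) were among the lower genes.

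Of 17 measured ER and unfolded protein response genes, 1 was higher and 4 lower in p25OE at 40 weeks, and their median log2 ratio was -0.22. Hspa5 was at 1037 and 639 scaled CPM, 1.62-fold lower (95% interval 1.42 to 1.86), while Herpud1, at 211 and 174, and Creld2, at 116 and 117, did not pass the threshold. The Hspa5 value fell short of it with plain CPM (log2 ratio -0.54) and in thinned cells (-0.45). Atf4, a transcription factor of the response, was the higher gene, at 144 and 286 scaled CPM (1.98-fold higher, 95% interval 1.60 to 2.42). Creb3l1, at 199.7 and 207 scaled CPM, did not pass it. Hspa5 was thus at its lowest level of the 4 libraries here, while Herpud1 and Creld2 were near the WT level of that age.

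Single genes differed widely. Nnat, an imprinted ER membrane protein, was at 1721, 932, 2742 and 220.4 scaled CPM, 1.85-fold lower (95% interval 1.80 to 1.89) in p25OE at 14 weeks and 12.4-fold lower (95% interval 10.0 to 15.7) at 40 weeks. In WT it was 1.59-fold higher at 40 than at 14 weeks. In the 14-week libraries Nnat in lactotrophs was at 27.8% or more of its highest class. At 40 weeks Gh was 2.57% of the UMIs of the median lactotroph in WT and 0.0447% in p25OE. The part of other cells' RNA in the Nnat values was not tested. The Nnat ratio at 14 weeks fell short of the threshold when each cell counted equally (log2 ratio -0.40) and when cells were thinned (-0.33). Aebp1, an extracellular matrix protein, was at 299, 290.1, 265 and 2.72 scaled CPM, with 1 UMI in the 50 cells, a ratio of 0.0103 (95% interval 0.00026 to 0.0573). Prss28, a serine protease, gave 75 UMIs in p25OE at 40 weeks, found in 18% of the cells, against 1.51 scaled CPM in WT, and in the other 3 libraries its highest class was thyrotrophs. Odc1, the first enzyme of polyamine synthesis, was 5.07-fold higher (131 and 667 scaled CPM) and Tmem158 was 4.19-fold higher. The other genes with the highest ratios were Ptgds, Lpl, Syt1, Mt3, Lgals1 and Krt18, between 2.73-fold higher and 4.85-fold higher. Pcp4, a calmodulin-binding peptide, was at 141, 316, 215 and 49.0 scaled CPM, so it was high in p25OE at 14 weeks (2.24-fold higher) and low at 40 weeks (4.39-fold lower). Dbi, an acyl-CoA-binding protein, was 3.10-fold lower, Itm2b 2.74-fold lower, Ly6h 2.56-fold lower and Rnaset2a 2.91-fold lower. Immediate early genes were higher for 2 and lower for 5 of 13, with Junb at 1742 and 661 scaled CPM (2.63-fold lower), Dusp1 2.82-fold lower, Btg2 2.39-fold lower and Ier2 1.63-fold lower. The remaining lists had at most 2 higher genes here, and nuclear oxidative phosphorylation genes were lower for 7 of 35 and higher for 0.

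**Figure D4:**
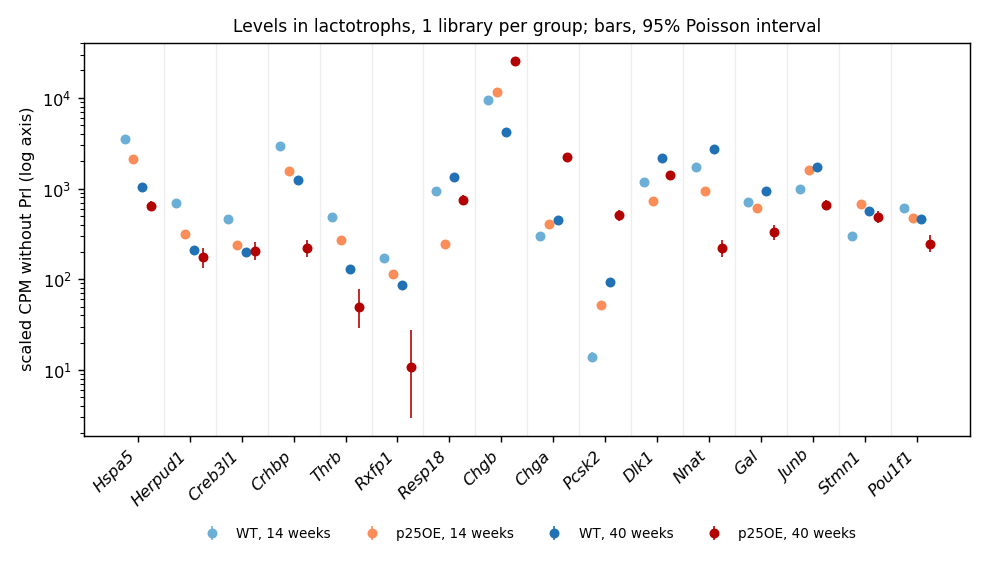
Levels of 16 genes in lactotrophs of each library in scaled CPM (y axis, log scale), with 95% Poisson intervals that cover counting error only. Hspa5, Crhbp and Thrb step down from WT at 14 weeks to p25OE at 40 weeks, Chgb and Chga stand highest in p25OE at 40 weeks, and Nnat is highest in WT at 40 weeks.

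Lactotrophs also varied among themselves. After thinning to 1000 UMIs other than Prl, which left out no cell, the variance over the mean of a typical gene was 1.03, 1.03, 1.02 and 0.949. It was 10.6, 9.77, 8.59 and 9.84 for the nuclear RNA Malat1 and 5.87, 7.71, 2.74 and 21.1 for Chgb. Hspa5 stood at 6.73, 3.24, 2.0 and 1.37, in the same order as its level. Crhbp stood at 4.31, 5.53, 3.90 and 2.34, Nnat at 5.29, 5.20, 3.67 and 1.59, and the imprinted long RNA Meg3 at 4.10, 3.04, 3.22 and 3.88. Galanin (2.06, 2.41, 2.04 and 1.63) and Dlk1 (2.03, 1.95, 2.10 and 4.81) complete the 8 most variable genes among those that lactotrophs hold at 10% or more of their highest class. Galanin varied about alike in the 3 larger libraries.

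In WT at 14 weeks 8.73% of lactotrophs held 10 or more of 1000 UMIs as Hspa5, against 1.24% in p25OE at 14 weeks, 0.327% in WT at 40 weeks and 0% of the 50 cells. The highest single cells held 55, 34, 22 and 4. The median cell held 2, 1, 1 and 0. The WT library at 14 weeks thus stood out by its cells with much Hspa5 as well as by its median. Crhbp was not detected in 32.2% of lactotrophs of WT and 65.6% of p25OE at 14 weeks, and in 60.7% and 82% at 40 weeks. Chgb was at a median of 8, 10, 3 and 21.5 UMIs per cell. Nnat was at a median of 0, 0, 2 and 0.

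**Figure D5:**
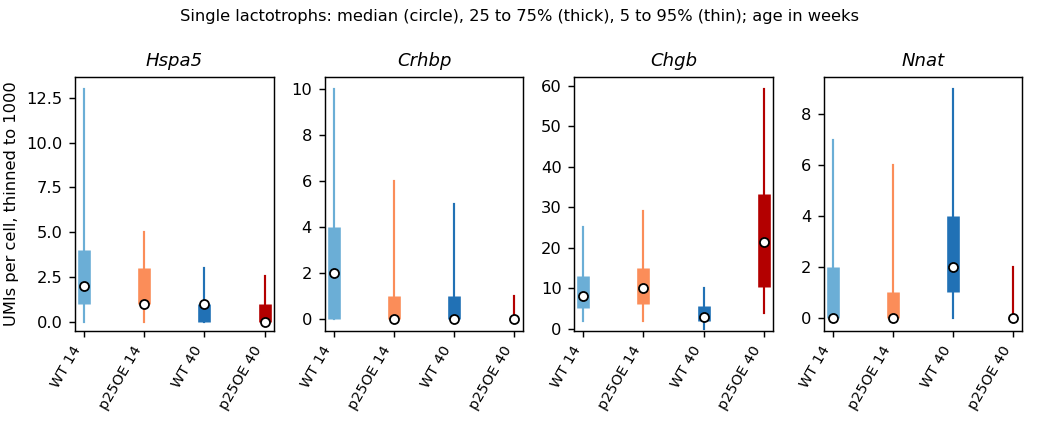
UMIs per lactotroph after thinning to 1000 UMIs other than Prl, for Hspa5, Crhbp, Chgb and Nnat in each library (x axis, genotype and age in weeks). Circles are medians, thick bars run from the 25th to the 75th and thin bars from the 5th to the 95th percentile of cells; the upper end for Hspa5 is 13 in WT at 14 weeks and 5 in p25OE.

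Within a library, lactotrophs were also split by Prl share into 3 bands of equal cell number, as description only since Prl chose the cells. The summed ER and unfolded protein response genes were at 1.16, 1.31 and 1.17 times the level of the lowest band in the highest band (WT at 14 weeks, p25OE at 14 weeks, WT at 40 weeks). Granule genes stood at 1.34, 1.34 and 1.01 times. Immediate early and heat shock genes ran the other way, at 0.845, 0.852 and 0.771 times. G2 and mitosis genes were at 0.549 times in WT and 0.146 times in p25OE at 14 weeks. From the lowest to the highest band their summed level was 528, 452 and 77.1 plain CPM in p25OE. It was thus low only in the band with the most Prl. In WT it was 140, 99.2 and 76.7, and only 3 WT cells were counted as dividing, so the WT values are not read as RNA of dividing cells. Depth differed between the bands: from the lowest to the highest band the median cell held 18609.5, 22692 and 20491 UMIs in WT at 14 weeks, 13273, 18795 and 26848 in p25OE at 14 weeks, and 7556.5, 9153 and 11681 in WT at 40 weeks. Without Prl the lowest and highest bands held 12020 and 8222 in WT at 14 weeks and 8577 and 10241 in p25OE, so depth ran in opposite directions in these libraries.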

How the data were processed

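Single-cell RNA was measured in 4 libraries of pituitary cells, 1 per genotype and age, after papain digestion and red blood cell lysis, per the labels' protocols. A 10x Genomics 3′ kit of the same version is given for all libraries, in 2 runs whose libraries are not given. The deposited matrices hold UMI counts per gene and barcode against mm10, per the file headers; Cell Ranger is given as 3.0.2 in the submitters' processing notes and as 3.0.1 in the file headers. The authors' own barcode filter and the doublet treatment are not given in the sources used here, and no doublet caller was run; alternatives leave out barcodes with the most UMIs or with markers of other cells.

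The members and the 23 gene lists were chosen with earlier results of these data known. Counts of the cells of a library were summed without Prl and divided by median-of-ratios size factors over genes with at least 20 UMIs in each library. Intervals of ratios are exact conditional binomial intervals at 95%. No p-value was computed, because each group is 1 library. Genes under a mean of 10 scaled CPM (100 with p25OE at 40 weeks) were left out. A count of 0 was bounded with 3 counts or the exact binomial limit. The scaling and calling steps were tested on simulated summed counts with Poisson error only. The simulation held no variation between cells or libraries, so it does not check the intervals against such variation.

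The text names Prl, Gh, the lactotroph markers, Cdk5, Cdk5r1, Cdk5r2, Mcm2 and Mki67, and members of the receptor, lineage and local-signal lists. The hormone genes Pomc, Cga, Lhb, Fshb and Tshb were also planned, but their levels are not given. From the other lists come the 3 highest and 3 lowest members, and from each comparison the 12 highest and 12 lowest ratios. The latter are among genes with at least 50 UMIs and 20 scaled CPM, an interval beyond 1.5-fold, and at least 10% of their highest cell class. It also names the 8 most variable genes and the 12 most enriched over somatotrophs. Atf6, Ern1, Calr and Hsp90b1, like the genes marked so in the text, were named after their values were seen. Promoters are RefSeq's (GRCm38.p6), matched by symbol. Python 3.11.15, numpy 2.4.6, scipy 1.17.1, pandas 2.3.3, matplotlib 3.10.9, R 4.3.3 and edgeR 4.0.16 (TMM factors of an alternative only) were used.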

Additional observations from a re-analysis of the deposited data

Results flagged for a closer look

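For 5 genes the ratio of p25OE over WT had opposite signs at 14 and 40 weeks, with both values past the threshold of 1.5-fold, and the difference between the ages was not tested. The log2 ratio of Pcp4 was 1.17 at 14 weeks and -2.13 at 40 weeks. For the small GTPase Rasd1 it was 0.78 and -1.21. For the immediate early genes Junb, Btg2 and Ier2 it was 0.72 and -1.40, 0.65 and -1.26, and 0.80 and -0.70. The values at 40 weeks rest on 50 cells, and the WT libraries differ between the ages as well.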

How the results depend on the processing

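No paired analysis was possible because each group is 1 library. Genes higher in p25OE at 14 weeks (385) numbered 967 without cells with 3 UMIs of other markers, 621 with each cell counted equally, 624 in thinned cells, 128 at a mean of at least 30 scaled CPM and 1697 with no filter, and lower genes (232) numbered 104 and 535 under the last 2. Genes higher in WT at 40 weeks (725) numbered 1249 with edgeR's TMM factors, 1372 with CPM of the total with Prl, 1332 with size factors from the 2 libraries compared, 427 at a mean of at least 30 and 1804 with no filter. Genes lower there (2662) numbered 1308 without cells with other markers, 1689 with CPM with Prl, 1650 with size factors from 2 libraries and 1271 at a mean of at least 30. Genes higher in p25OE at 40 weeks (82) numbered 149 with CPM without Prl, 15 at a mean of at least 300 and 883 with no filter, and lower genes (185) numbered 110, 67 and 531, and 96 in thinned cells. The cause of these changes was not tested, beyond the number of genes a filter admits.

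Lactotrophs numbered 1536, 724 and 862 (WT and p25OE at 14 weeks, WT at 40 weeks) with Prl of at least 30%, 1246, 645 and 1145 with at most 5% mitochondrial UMIs, 1583 and 1149 in WT at 14 and 40 weeks without the 6% of cells with the most UMIs, and 728 in WT at 40 weeks with at least 2000 genes. Without cells with 3 UMIs of other markers they numbered 278, 235, 128 and 14. When Col1a2 and S100a1 were not counted as such markers, an alternative chosen after seeing the data like the size factors from 2 libraries, the subtraction of free RNA and the removal of dividing cells, they numbered 1534, 673, 298 and 31. The last library gave no comparison when fewer than 50 of its cells were left, which was so under 7 of the 17 alternatives.

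The ER and unfolded protein response list kept 9 to 11 lower genes and a median log2 ratio from -0.49 to -0.41 at 14 weeks over 17 alternatives, and 12 to 20 lower genes between the ages. A list's median covers the genes measured under each alternative, so its genes can differ between alternatives. The median of G2 and mitosis genes at 14 weeks (2.96) was -0.39 without dividing cells and -0.35 at a mean of at least 30. Between the ages (0.71) it was -0.99 with no filter. The MHC class I median between the ages (0.59) was -0.18 after free RNA was subtracted, and the local-signal median at 40 weeks (-1.17) was 0.55 with no filter. Of the named genes' ratios under the alternatives, 121 fell short of the threshold, 127 newly passed it and 5071 stayed on their side; Mef2c at 14 weeks fell short in 7 alternatives and Rxfp1 in 5. Depth limits p25OE at 40 weeks most: its 50 cells leave 1345 genes measurable against 8507 at 14 weeks.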
